A study of Rattus norvegicus with 49 samples.

Results

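The cytochrome P450 genes of families 1 to 4 are considered here as a set because they encode most of the enzymes that oxidise drugs, foreign chemicals, steroids and fatty acids in the liver. The members were all genes whose symbol on the array annotation began with Cyp, a family number from 1 to 4, a subfamily letter and a gene number, which gave 42 of the 14217 genes measured. Of the 42, 3 belonged to family 1, 25 to family 2, 4 to family 3 and 10 to family 4. A gene with several probe sets was represented by the probe set with the highest mean, and probe sets that carried more than 1 gene symbol were left out, so that Cyp2b1, Cyp2b2, Cyp2d1, Cyp2d5 and Cyp4a2 were not members.

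RNA from the livers of 49 male Sprague Dawley rats, 1 Affymetrix rat genome array per rat, was measured at day 4 or day 14 of 5 feeding regimens. Animals started at about 8 to 10 weeks of age and all received powdered feed. Group 1 ate ad libitum and was not fasted, and group 2 ate ad libitum and was fasted overnight before necropsy. Groups 3, 4 and 5 were offered 15%, 30% and 60% less food, with an overnight fast as in group 2, which was the reference for all other groups of its day. The series' design text describes all animals as fasted, whereas the sample labels and the study's methods leave group 1 unfasted. There were 5 rats in each group at each day, except for 4 rats in group 1 at day 14, and no rat was measured at both days. Values are log2 intensities after the authors' normalization, and a level of 1 gene cannot be set against a level of another because each probe set has its own response.

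P450 enzymes are heme proteins of the endoplasmic reticulum that insert oxygen into their substrates with electrons from NADPH, passed on by P450 oxidoreductase (Por) and cytochrome b5. In liver, family 1 genes are induced through the aryl hydrocarbon receptor, Cyp2b, Cyp2c and Cyp3a genes through the receptors CAR and PXR, and Cyp4a genes through PPARα, the fatty acid receptor that is active in fasting. In rats several Cyp2a, Cyp2c and Cyp3a genes are also expressed mainly in males or mainly in females, a pattern set by the rhythm of growth hormone secretion through Stat5b.

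The tissue was checked against marker genes. The mean of 5 hepatocyte markers stood between 14.26 and 14.47 in the 10 group means, and that of 5 kidney and intestine markers between 5.23 and 5.53. The group means lay between 9.10 and 9.56 for Kupffer cell, 9.69 and 9.96 for endothelial, 5.92 and 6.09 for cholangiocyte and 5.48 and 5.74 for T and NK cell markers. A gene was called dim if its mean lay among the lowest 20% of all genes, below log2 5.31, which was so for Cyp2a3, Cyp2b12, Cyp2b21, Cyp2s1 and Cyp4f5. The other 37 members lay above it. In bulk tissue, fewer cells of a type and less RNA per cell cannot be told apart. In group 1, the mean of 6 stellate cell and fibroblast markers ranged from 7.94 to 8.38 in single rats at day 4 and from 8.00 to 8.41 at day 14, against 7.39 to 7.94 and 7.42 to 7.85 in group 2, with 2 and 3 of the 6 called higher. At day 14, 4 erythroid markers averaged 7.57 to 8.56 in the rats of group 4 and 7.10 to 7.71 in those of group 5, against 8.20 to 8.80 in group 2, with 2 of the 4 called lower in each. The 5 hepatocyte markers averaged 14.24 to 14.31 in group 4 and 14.23 to 14.28 in group 5, against 14.40 to 14.48 in group 2, with 1 and 2 of the 5 called lower. Of all genes, 9.76% and 7.26% were called higher in group 1 at days 4 and 14, and 6.24% and 10.9% lower in groups 4 and 5 at day 14. The part of these marker shifts in the P450 results was not tested.

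Groups 1, 3, 4 and 5 were each set against group 2 of the same day in a limma fit over all 14217 genes, and genes with an adjusted p under 0.1 were called. The largest shares of members were called in the unfasted rats. In group 1 at day 4, 13 members were called higher and 8 lower, which is 50% of the 42, while 21.3% of all genes were called (9.76% higher, 11.5% lower). In group 1 at day 14, 7 were called higher and 7 lower, or 33.3%, against 13.2% of all genes (7.26% higher, 5.92% lower). Under food reduction at day 4, group 3 had 1 member called higher and none lower (2.38%), against 0.253% of all genes (0.113% higher, 0.141% lower). Group 4 had 3 higher and 3 lower (14.3%), against 5.43% of all genes (3.05% higher, 2.38% lower), and group 5 had 3 higher and 4 lower (16.7%), against 7.14% (3.56% higher, 3.58% lower). At day 14, group 3 had 1 higher and 3 lower (9.52%), against 6.54% of all genes (3.4% higher, 3.14% lower). Group 4 had 2 higher and 5 lower (16.7%), against 12.8% (6.52% higher, 6.24% lower), and group 5 had 2 higher and 5 lower (16.7%), against 19.8% (8.88% higher, 10.9% lower). With one fit of all groups, 12 members (28.6%) and 27.5% of all genes were called in group 5 at day 14. In these 8 comparisons 26 members were called at least once and 16 never. How many of all genes were called at least once was not counted, so 26 cannot be set against them. All comparisons of a day share the rats of group 2. Leaving out 1 rat at a time moved 4 of these totals by more than 1.5 times. Shares of all genes were not counted in any fit that left out a rat. The total of group 1 at day 14 was 8 without rat 1 of group 1 and 9 without rat 1 or rat 4 of group 2. The 1 call of group 3 at day 4 was lost without any of 8 rats. In group 3 at day 14 the total was 2 without rat 1 or rat 2 of group 3 or rat 1 or rat 3 of group 2. In group 4 at day 4 it was 2 without rat 4 or rat 5 of group 2, and 3 without rat 2 of group 2 or rat 2, 4 or 5 of group 4.

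**Figure D1:**
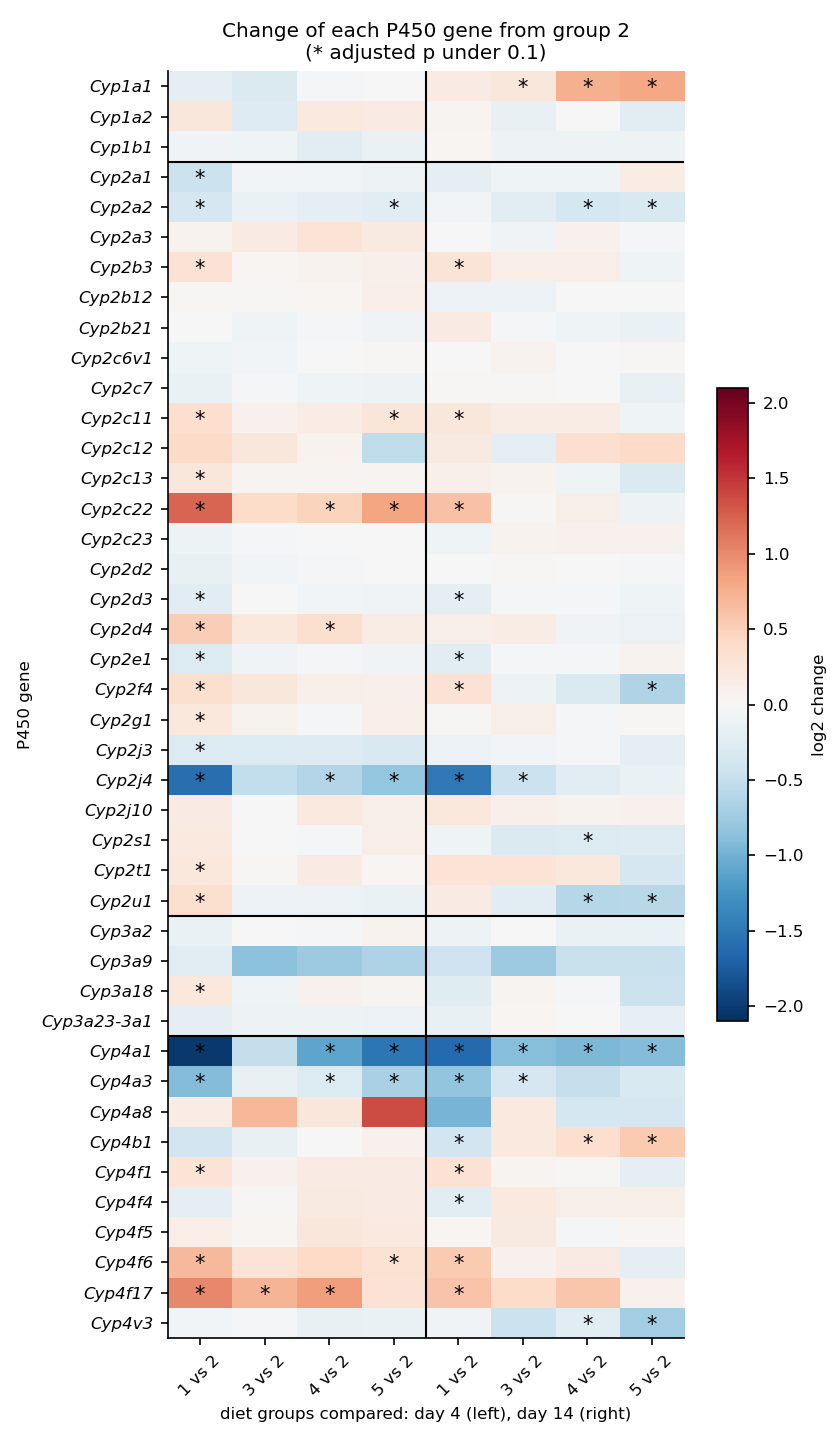
Log2 change of each of the 42 P450 genes (rows, by family) from group 2 in groups 1, 3, 4 and 5 at day 4 (left 4 columns) and day 14 (right 4 columns), with a star where the adjusted p was under 0.1. Cyp4a1 and Cyp2j4 were lowest in group 1, Cyp2c22 had its largest rises in the group 1 and group 5 columns of day 4, and Cyp1a1 and Cyp4b1 were called higher in groups 4 and 5 at day 14.

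The members that fell most were fatty acid ω-hydroxylases of the Cyp4a subfamily and Cyp2j4, and the members that rose most in group 1 were Cyp2c22 and 2 Cyp4f genes. The upstream promoter sequences of 4 of these genes, as listed by RefSeq for build GRCr8, are shown because Cyp4a3 and Cyp2j4 were called lower in the same 5 comparisons, and Cyp2c22 and Cyp2c11 were called higher together in 3. A promoter entry was found for 35 of the 42 members, and not for Cyp1a1, Cyp2a2, Cyp2c6v1, Cyp4a1, Cyp4f4, Cyp4f17 and Cyp4v3. Each sequence covers 250 bases before the annotated start and is written 5′ to 3′ in the direction of the gene, with matches to the 3 motifs searched in capitals. The motif AGGTCA is the hexamer that many nuclear receptors bind, AGGTCANAGGTCA is its direct repeat with 1 base between, the form bound by PPARα, and TTCNNNGAA is the motif of STAT factors. The coordinates are chr5:134352237-134352486 on the minus strand for Cyp4a3, chr5:116323043-116323292 on the minus strand for Cyp2j4, chr1:248980768-248981017 on the minus strand for Cyp2c22 and chr1:246174966-246175215 on the plus strand for Cyp2c11.
Cyp4a3: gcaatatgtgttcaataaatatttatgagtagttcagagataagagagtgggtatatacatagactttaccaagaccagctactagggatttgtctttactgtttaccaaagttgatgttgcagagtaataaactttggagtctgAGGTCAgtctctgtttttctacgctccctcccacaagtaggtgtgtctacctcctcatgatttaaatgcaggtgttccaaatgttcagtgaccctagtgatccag
Cyp2j4: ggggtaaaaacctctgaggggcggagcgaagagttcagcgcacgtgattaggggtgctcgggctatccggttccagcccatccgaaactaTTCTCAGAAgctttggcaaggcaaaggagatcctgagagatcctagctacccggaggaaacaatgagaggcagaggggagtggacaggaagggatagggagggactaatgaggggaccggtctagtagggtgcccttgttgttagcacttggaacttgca
Cyp2c22: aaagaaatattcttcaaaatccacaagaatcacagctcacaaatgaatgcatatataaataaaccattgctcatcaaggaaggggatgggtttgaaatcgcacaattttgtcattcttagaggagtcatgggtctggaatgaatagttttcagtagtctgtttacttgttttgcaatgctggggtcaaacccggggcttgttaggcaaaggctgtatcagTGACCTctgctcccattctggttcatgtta
Cyp2c11: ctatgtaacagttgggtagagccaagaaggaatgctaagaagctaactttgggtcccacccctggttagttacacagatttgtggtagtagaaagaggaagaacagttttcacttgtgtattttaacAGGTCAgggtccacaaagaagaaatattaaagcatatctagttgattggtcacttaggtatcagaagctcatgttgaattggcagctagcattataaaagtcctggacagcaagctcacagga
AGGTCA, searched on both strands, began 105 bases before the start in Cyp4a3 and 123 bases before it in Cyp2c11, and lay on the opposite strand in Cyp2c22, from 30 to 25 bases before the start. It was present in 12 of the 35 member promoters (34.3%) and in 13.7% of 27457 promoters of the same length. Among the 12 were genes of the same subfamily, such as Cyp2b12 and Cyp2b21, Cyp2c7, Cyp2c11 and Cyp2c22, and Cyp3a2 and Cyp3a23-3a1. The 12 need not be independent, and the difference between the shares was not tested. The direct repeat AGGTCANAGGTCA, each copy of which is also a match to AGGTCA, was present in 0 of the 35 and in 15 of the 27457 promoters (0.0546%). TTCNNNGAA was present in 3 of the 35, Cyp2j4, Cyp2t1 and Cyp4a8 (8.57%), and in 7.52% of all promoters. These matches describe letters in a short window and do not show that a factor binds there.

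The Cyp4a enzymes hydroxylate the terminal carbon of fatty acids, and their genes are well known targets of PPARα. Cyp4a1 (probe set 1368934_at) fell in 7 of the 8 comparisons with group 2. At day 4 its log2 intensity was 11.51, 11.13, 10.87, 10.81 and 10.52 in the rats of group 1, against 12.88, 13.28, 12.88, 13.04 and 12.90 in those of group 2. The groups did not overlap, and the change was -2.03 (SE 0.16, adjusted p = 1.06e-05), a level 4.07-fold lower. With less food at day 4, Cyp4a1 had 12.88, 12.69, 12.53, 12.33 and 12.02 in group 3, 12.27, 11.70, 11.22, 11.99 and 12.29 in group 4 and 11.45, 11.56, 11.42, 11.55 and 11.40 in group 5. All rats of groups 4 and 5 lay below all rats of group 2, whereas group 3 touched its range. The change was -0.50 (SE 0.15, adjusted p = 0.242) in group 3, which did not pass the test, -1.10 (SE 0.18, adjusted p = 0.0107) in group 4 and -1.52 (SE 0.08, adjusted p = 3.46e-06) in group 5. The 4 group means thus fell step by step with the reduction, from group 2 through group 5, and the linear trend amounted to -1.51 (adjusted p = 0.000173) at 60% less food and was also called without group 2 (adjusted p = 0.0849).

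At day 14 Cyp4a1 stood at 11.07, 11.08, 10.87 and 11.46 in group 1, against 12.76, 12.65, 12.66, 12.90 and 12.75 in group 2, a change of -1.63 (SE 0.11, adjusted p = 2.12e-05). It was 11.78, 11.66, 12.46, 11.76 and 11.59 in group 3, 12.17, 12.11, 12.32, 11.27 and 11.11 in group 4 and 11.85, 11.76, 12.35, 11.76 and 11.44 in group 5. Again no rat of these groups reached the range of group 2. The changes were close to each other at this day, with -0.89 (SE 0.14, adjusted p = 0.00362) in group 3, -0.95 (SE 0.21, adjusted p = 0.0178) in group 4 and -0.91 (SE 0.13, adjusted p = 0.000964) in group 5. Each of the 7 calls held without each rat in turn. A probe set of a gene can also respond to close relatives in its subfamily, and Cyp4a2, nearly identical to Cyp4a3, shares a probe set with it that is not used here. In group 5 the fall was smaller at day 14 than at day 4, with a day difference of 0.61 (SE 0.17, adjusted p = 0.0901), but that call was lost without 14 of the 20 rats, each left out in turn (adjusted p up to 0.169, without rat 3 of group 5 at day 4).

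Cyp4a3 (probe set 1370397_at) moved in the same direction by less. At day 4 it had 12.66, 13.00, 13.14, 12.57 and 12.96 in group 1, against 13.70, 13.76, 13.85, 13.83 and 13.73 in group 2, without overlap. The change was -0.91 (SE 0.10, adjusted p = 0.000181). It had 13.74, 13.76, 13.42, 13.56 and 13.64 in group 3, 13.58, 13.32, 13.26, 13.65 and 13.60 in group 4 and 12.95, 12.72, 13.25, 13.11 and 13.40 in group 5. Groups 4 and 5 lay wholly below group 2, with changes of -0.29 (SE 0.08, adjusted p = 0.0904) and -0.68 (SE 0.11, adjusted p = 0.00588), and group 3 overlapped it at -0.15 (SE 0.07, adjusted p = 0.502). At day 14 the values were 12.27, 12.61, 12.76 and 13.13 in group 1, against 13.43, 13.61, 13.51, 13.31 and 13.76 in group 2, a change of -0.83 (SE 0.15, adjusted p = 0.00767). Among the restricted groups at this day it was 13.25, 13.23, 13.32, 12.84 and 13.21 in group 3, 13.13, 13.66, 13.24, 12.47 and 12.69 in group 4 and 13.21, 13.13, 13.59, 12.79 and 13.33 in group 5. Only group 3 passed the test there, with -0.35 (SE 0.10, adjusted p = 0.0856), and the changes in groups 4 and 5 were -0.48 (SE 0.19, adjusted p = 0.151) and -0.31 (SE 0.13, adjusted p = 0.15). The calls in groups 1 and 5 held without each rat in turn. The call in group 4 at day 4 was lost without 8 of the 10 rats, each left out in turn (adjusted p up to 0.182, without rat 4 of group 2 at day 4), and that in group 3 at day 14 without 8 of the 10 rats, each left out in turn (adjusted p up to 0.171, without rat 5 of group 2 at day 14).

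Cyp4a8, the remaining member of the subfamily on the array, was called in none of the 8 comparisons. Its levels differed more between rats of the same group than those of any other member, with a pooled SD within groups of 0.89, against 0.33 for Cyp4a1 and 0.26 for Cyp4a3. It is described because of that spread, a choice made after its values were seen. At day 4 it had 8.97, 8.75, 8.28, 9.27 and 6.25 in group 5, against a range of 6.34 to 7.65 in group 2, and the change of 1.36 had an adjusted p of 0.161. At day 14 group 5 averaged 7.98, against 8.34 in group 2, which had averaged 6.94 at day 4. The change in group 5 differed between the days by -1.72, which was not called. The second probe set of Cyp4a8 varied with the first, with a Pearson r of 0.96 between their log2 values over 49 arrays. This r takes in differences between groups and is a description without a test.

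Other genes known to be driven by PPARα were also called lower. Of 9 such genes measured, 7 were called lower in group 1 at day 4 and none higher, with a median change of -1.60, beside a median of 0.00 over all genes. The numbers called lower at day 4 were 1 in group 3, 8 in group 4 and 8 in group 5, and at day 14 they were 5 in group 1, 5 in group 3, 4 in group 4 and 5 in group 5, with none higher. Of all genes, 11.5%, 0.141%, 2.38% and 3.58% were called lower in groups 1, 3, 4 and 5 at day 4. At day 14 these shares were 5.92%, 3.14%, 6.24% and 10.9%. Vnn1, a pantetheinase, changed by -2.97 in the unfasted rats of day 4 and by -2.32 in group 5 at day 14. Acot2, a mitochondrial acyl-CoA thioesterase, changed by -1.92 and -1.27, all called. Cpt1a, the carnitine palmitoyltransferase of the outer mitochondrial membrane, was called lower in group 1, at -1.83 at day 4 and -1.34 at day 14, and in groups 3, 4 and 5 its changes lay between -0.16 and 0.09, none called. Ppara itself had -0.62 in group 1 at day 4 (called), and at day 14 it was higher by 0.70 in group 3, 0.67 in group 4 and 0.64 in group 5 (all called).

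Cyp2j enzymes convert arachidonic acid to epoxides and are found in liver, heart and intestine. Cyp2j4 (probe set 1387296_at) was the second most strongly lowered member. At day 4 it had 9.86, 9.88, 9.97, 9.54 and 9.80 in group 1, against 11.31, 11.63, 11.35, 11.45 and 11.24 in group 2, a change of -1.58 (SE 0.09, adjusted p = 1.43e-06). At day 14 it had 9.50, 9.12, 10.40 and 9.82 in group 1, against 11.28, 11.13, 11.08, 11.21 and 11.36 in group 2, a change of -1.50 (SE 0.20, adjusted p = 0.00132). The groups did not overlap at either day, and the levels were 3-fold and 2.83-fold lower in group 1.

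With less food at day 4, Cyp2j4 had 10.94, 11.19, 10.82, 10.99 and 10.48 in group 3, 10.53, 10.69, 10.81, 11.03 and 10.88 in group 4 and 10.57, 10.26, 10.53, 10.80 and 10.75 in group 5. All rats of these groups lay below those of group 2, with -0.51 (SE 0.12, adjusted p = 0.165) in group 3, which was not called, -0.61 (SE 0.10, adjusted p = 0.0104) in group 4 and -0.81 (SE 0.11, adjusted p = 0.00224) in group 5. At day 14 the restricted rats had 10.64, 10.97, 10.86, 10.59 and 10.72 in group 3, 11.33, 10.99, 10.99, 10.83 and 10.84 in group 4 and 11.18, 11.48, 10.95, 10.89 and 10.83 in group 5. Group 3 was still wholly below group 2, at -0.46 (SE 0.09, adjusted p = 0.00954), whereas groups 4 and 5 overlapped it, at -0.22 (SE 0.10, adjusted p = 0.22) and -0.14 (SE 0.12, adjusted p = 0.502). The 5 calls held without each rat in turn. In group 5 the change differed between the days by 0.67 (SE 0.17, adjusted p = 0.067), a call that was lost without 7 of the 20 rats, each left out in turn (adjusted p up to 0.13, without rat 4 of group 2 at day 4). Cyp2j3 was called only in group 1 at day 4, at -0.29 (SE 0.10, adjusted p = 0.0875), which was lost without 7 of the 10 rats, each left out in turn (adjusted p up to 0.177, without rat 2 of group 1 at day 4) and with the mean of its 2 probe sets, where the change was -0.17 (adjusted p = 0.410). Cyp2j10 was called in no comparison.

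**Figure D2:**
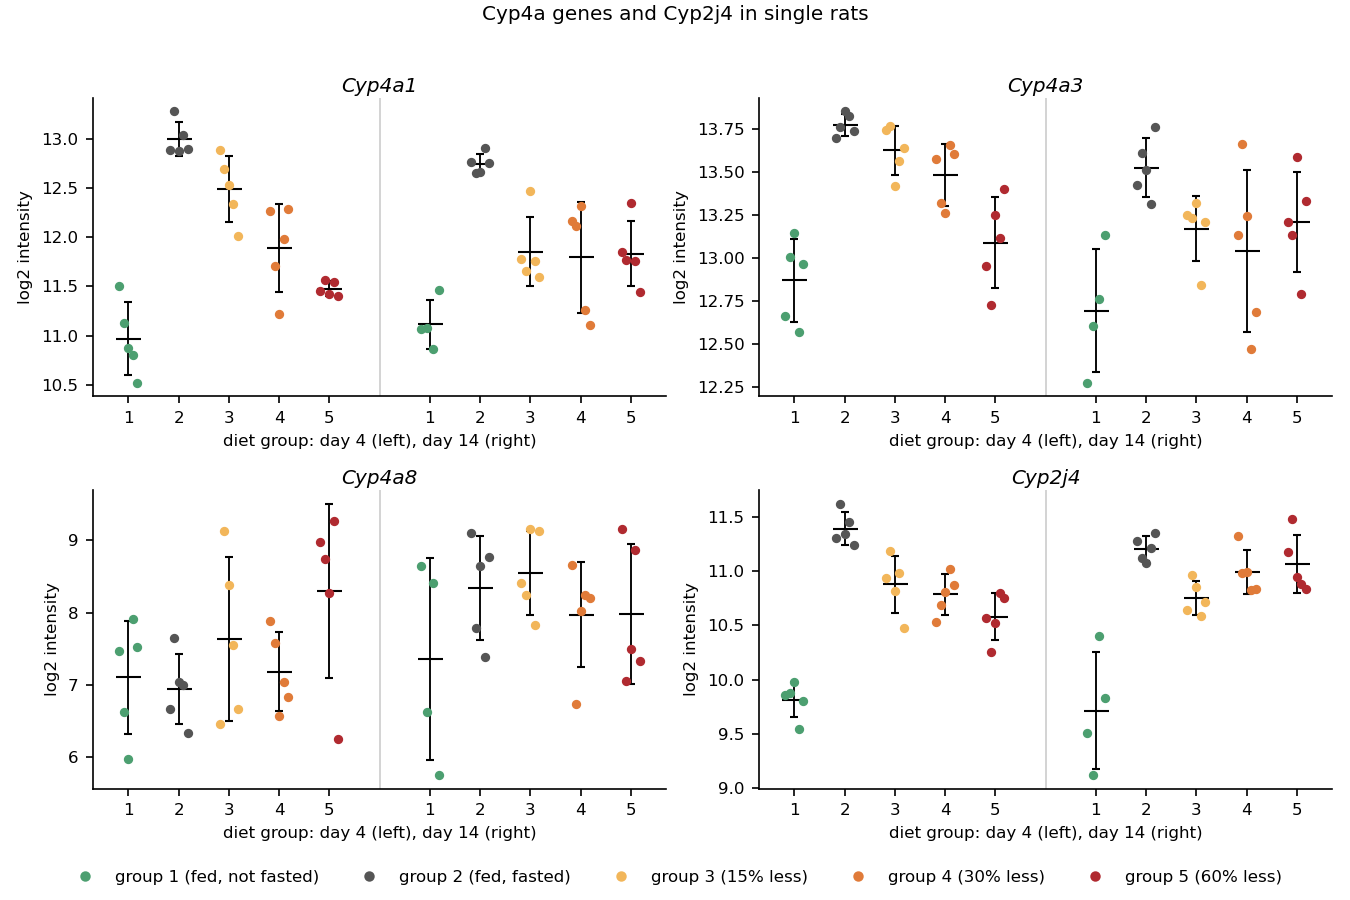
Log2 intensity of Cyp4a1, Cyp4a3, Cyp4a8 and Cyp2j4 in single rats (points) by diet group at day 4 (left of each panel) and day 14 (right), with the group mean (bar) and SD (whiskers). Cyp4a1 and Cyp2j4 stood lowest in group 1 and highest in group 2 at both days, and Cyp4a8 was the most widely spread within groups.

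The Cyp4f enzymes hydroxylate leukotriene B4 and other eicosanoids. Cyp4f6 (probe set 1387916_at) had 11.16, 11.24, 11.20, 11.07 and 11.27 in group 1 at day 4, against 10.39, 10.42, 10.25, 10.75 and 10.70 in group 2, a change of 0.69 (SE 0.09, adjusted p = 0.000704). At day 14 it had 11.10, 11.23, 11.00 and 11.49 in group 1, against 10.83, 10.87, 10.63, 10.47 and 10.45 in group 2, a change of 0.55 (SE 0.12, adjusted p = 0.0184). All rats of group 1 lay above all rats of group 2 at both days. Of the restricted groups, only group 5 at day 4 was called, with 10.84, 10.97, 10.78, 10.74 and 10.77, which overlapped group 2. Its change of 0.32 (SE 0.10, adjusted p = 0.0984) was lost without 8 of the 10 rats, each left out in turn (adjusted p up to 0.196, without rat 2 of group 5 at day 4).

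Cyp4f17 (probe set 1392720_at) had a mean of 6.36, not far above the dim limit of 5.31. At day 4 it had 6.81, 6.02, 6.88, 6.97 and 6.94 in group 1, against 5.75, 6.09, 5.78, 5.64 and 5.32 in group 2, a change of 1.01 (SE 0.19, adjusted p = 0.004). The rat at 6.02 lay inside the range of group 2 and the other 4 above it. It had 6.25, 6.32, 6.38, 6.39 and 6.79 in group 3, 6.64, 5.98, 7.38, 6.58 and 6.38 in group 4 and 6.17, 6.25, 6.09, 5.67 and 5.95 in group 5. Group 3 lay wholly above group 2, at 0.71 (SE 0.14, adjusted p = 0.0998), the single member called in that group. That call was lost without 8 of the 10 rats, each left out in turn (adjusted p up to 0.231, without rat 4 of group 2 at day 4) and under 4 of the other settings described in the closing section. Group 4 was called at 0.88 (SE 0.22, adjusted p = 0.0581), lost without 3 of the 10 rats, each left out in turn (adjusted p up to 0.124, without rat 4 of group 2 at day 4), and group 5 was not, at 0.31 (SE 0.14, adjusted p = 0.276). At day 14 group 1 had 6.71, 6.27, 6.70 and 7.13, against 5.70, 6.04, 6.48, 5.93 and 6.36 in group 2, and the change of 0.60 (SE 0.19, adjusted p = 0.0743) was lost without 6 of the 9 rats, each left out in turn (adjusted p up to 0.188, without rat 4 of group 1 at day 14).

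Cyp4f1 rose in group 1, by 0.29 (SE 0.08, adjusted p = 0.0229) at day 4 and 0.31 (SE 0.06, adjusted p = 0.0139) at day 14, and its groups did not overlap at either day. Cyp4f4 was called lower in group 1 at day 14, at -0.23 (SE 0.08, adjusted p = 0.0978), which was lost without 8 of the 9 rats, each left out in turn (adjusted p up to 0.248, without rat 1 of group 1 at day 14). Cyp4f5, a dim probe set, was not called. The 5 Cyp4f genes therefore did not move as a block, with 3 called higher and none lower in the unfasted rats of day 4, and 3 higher and 1 lower in those of day 14.

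Cyp4b1 rose and Cyp4v3 fell in groups 4 and 5 at day 14. Cyp4b1 (probe set 1370399_at) acts on medium-chain fatty acids and activates furan toxins in lung and other tissues. It had 9.05, 8.99, 9.23 and 8.90 in group 1 at day 14, against 9.55, 9.47, 9.30, 9.41 and 9.50 in group 2, and the change was -0.40 (SE 0.08, adjusted p = 0.0126). It had 9.84, 9.82, 9.47, 9.59 and 9.53 in group 3, 9.69, 9.62, 9.90, 10.06 and 9.76 in group 4 and 10.04, 10.21, 9.85, 10.10 and 9.81 in group 5. Groups 4 and 5 lay wholly above group 2, with changes of 0.36 (SE 0.09, adjusted p = 0.0267) and 0.56 (SE 0.09, adjusted p = 0.00144), and group 3 had 0.20 (SE 0.09, adjusted p = 0.249). These 3 calls held without each rat in turn. At day 4 the changes were -0.41 in group 1, -0.16 in group 3, 0.01 in group 4 and 0.08 in group 5, none called. The difference between the days in group 5, 0.47 (SE 0.23, adjusted p = 0.393), was not called.

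Cyp4v3 (probe set 1388127_at) corresponds to human CYP4V2, a fatty acid ω-hydroxylase whose loss causes a retinal disease in humans. Its day 14 values were 11.70, 11.84, 11.79, 11.60 and 10.70 in group 3, 11.65, 11.84, 11.73, 11.72 and 11.80 in group 4 and 11.53, 11.38, 11.03, 10.78 and 11.51 in group 5, against 11.91, 11.82, 12.05, 12.01 and 12.08 in group 2. Group 5 lay wholly below group 2, at -0.73 (SE 0.14, adjusted p = 0.00395), a call that held without each rat in turn. Group 4 overlapped it slightly, at -0.23 (SE 0.07, adjusted p = 0.0632), a call lost without 6 of the 10 rats, each left out in turn (adjusted p up to 0.143, without rat 1 of group 4 at day 14) and with the mean of the 2 probe sets, at -0.29 (adjusted p = 0.138). Group 3 held the lowest rat of all, at 10.70, and was not called, at -0.45 (SE 0.18, adjusted p = 0.235). The unfasted rats of day 14 had a change of -0.08 (adjusted p = 0.594). At day 4 the changes lay between -0.16 and -0.04 and none was called.

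Cyp2u1 (probe set 1398710_at), another fatty acid hydroxylase, was called higher in the unfasted rats at day 4 and lower under food reduction at day 14. In group 1 at day 4 it had 7.26, 7.65, 7.55, 7.73 and 7.55, against 7.14, 7.32, 7.21, 7.02 and 7.36 in group 2, a change of 0.34 (SE 0.09, adjusted p = 0.0318) with an overlap of the groups. The fasted rats of day 14 had 7.07, 7.08, 7.10, 7.17 and 7.40 in group 3, 6.70, 6.69, 6.82, 6.86 and 6.95 in group 4 and 7.08, 6.67, 7.07, 6.69 and 6.63 in group 5, against 7.49, 7.38, 7.86, 7.17 and 7.12 in group 2. Groups 4 and 5 were wholly below group 2, at -0.60 (SE 0.13, adjusted p = 0.0125) and -0.58 (SE 0.15, adjusted p = 0.0196), and group 3 was not called, at -0.24 (SE 0.13, adjusted p = 0.396). The 3 calls held without each rat in turn.

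The Cyp2c subfamily has 7 members here and includes the most abundant steroid and drug hydroxylases of rat liver. Cyp2c22 (probe set 1387949_at), which hydroxylates retinoic acid in rats, rose most. At day 4 it had 13.86, 13.90, 14.01, 13.94 and 13.89 in group 1, against 12.95, 12.61, 13.02, 12.44 and 12.44 in group 2, a change of 1.23 (SE 0.11, adjusted p = 3.77e-05) or 2.34-fold. It had 13.14, 12.93, 12.80, 13.41 and 13.08 in group 3, 12.83, 13.29, 13.30, 13.11 and 13.30 in group 4 and 13.54, 13.45, 13.55, 13.56 and 13.52 in group 5. The 5 rats of group 5 lay between 13.45 and 13.56 and all above group 2, with a change of 0.83 (SE 0.11, adjusted p = 0.00268). Group 4 overlapped group 2, at 0.47 (SE 0.13, adjusted p = 0.0892), a call lost without 7 of the 10 rats, each left out in turn (adjusted p up to 0.191, without rat 4 of group 2 at day 4), and group 3 was not called, at 0.38 (SE 0.14, adjusted p = 0.365). The trend over the reduction in food came to 0.78 (adjusted p = 0.000619) at 60% less food and was not called without group 2 (adjusted p = 0.131).

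At day 14 the unfasted rats were the one group called higher in Cyp2c22, with 13.88, 13.88, 13.82 and 13.81 in group 1, against 13.10, 13.18, 13.58, 12.99 and 13.31 in group 2, and a change of 0.62 (SE 0.11, adjusted p = 0.00554). It had 13.31, 13.37, 12.93, 13.26 and 13.35 in group 3, 13.26, 13.41, 13.54, 13.53 and 12.99 in group 4 and 13.11, 13.24, 13.31, 12.90 and 13.03 in group 5, all overlapping group 2. The change in group 5 was -0.11 (SE 0.11, adjusted p = 0.614), and its difference from the change at day 4 was -0.94 (SE 0.17, adjusted p = 0.018), which held without each rat in turn. Group 2 itself averaged 13.23 at day 14 and 12.69 at day 4, so the level of the fasted controls entered this difference too.

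Cyp2c11 (probe set 1387328_at), the main testosterone hydroxylase of the male rat liver, had 14.14, 14.11, 14.14, 14.13 and 14.14 in group 1 at day 4, against 13.81, 13.77, 13.94, 13.69 and 13.71 in group 2, a change of 0.35 (SE 0.06, adjusted p = 0.00205). The groups did not overlap. In group 5 at day 4 it had 14.16, 14.01, 14.04, 13.98 and 13.99, all above group 2, and rose by 0.25 (SE 0.06, adjusted p = 0.0499). That call was lost without rat 4 or rat 5 of group 2, with an adjusted p of up to 0.127, while the trend over the reduction at day 4 held without each rat, at 0.25 (adjusted p = 0.0112) at 60% less food, but not without group 2 (adjusted p = 0.304). In group 1 at day 14 it had 14.11, 14.14, 14.10 and 13.92, against 13.76, 13.92, 13.94, 13.78 and 13.81 in group 2, and the change of 0.23 (SE 0.07, adjusted p = 0.0764) was lost without 6 of the 9 rats, each left out in turn (adjusted p up to 0.182, without rat 1 of group 1 at day 14). The rats of group 5 at day 14 had 13.85, 14.10, 13.85, 13.92 and 13.08, where 1 rat was far below the others, and the change of -0.08 (SE 0.16, adjusted p = 0.807) was not called.

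Of the other Cyp2c genes, Cyp2c13, also expressed mainly in males, was called once, at 0.24 (SE 0.05, adjusted p = 0.0119) in group 1 at day 4. Cyp2c6v1, Cyp2c7, Cyp2c12 and Cyp2c23 were called in none of the 8 comparisons. The changes lay between -0.09 and 0.08 for Cyp2c6v1, between -0.15 and 0.02 for Cyp2c7 and between -0.11 and 0.09 for Cyp2c23. Cyp2c12, which is known as a female-specific steroid sulfate hydroxylase in rats, had a mean of 11.97 over these 49 males, with rats from 9.50 to 13.37.

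**Figure D3:**
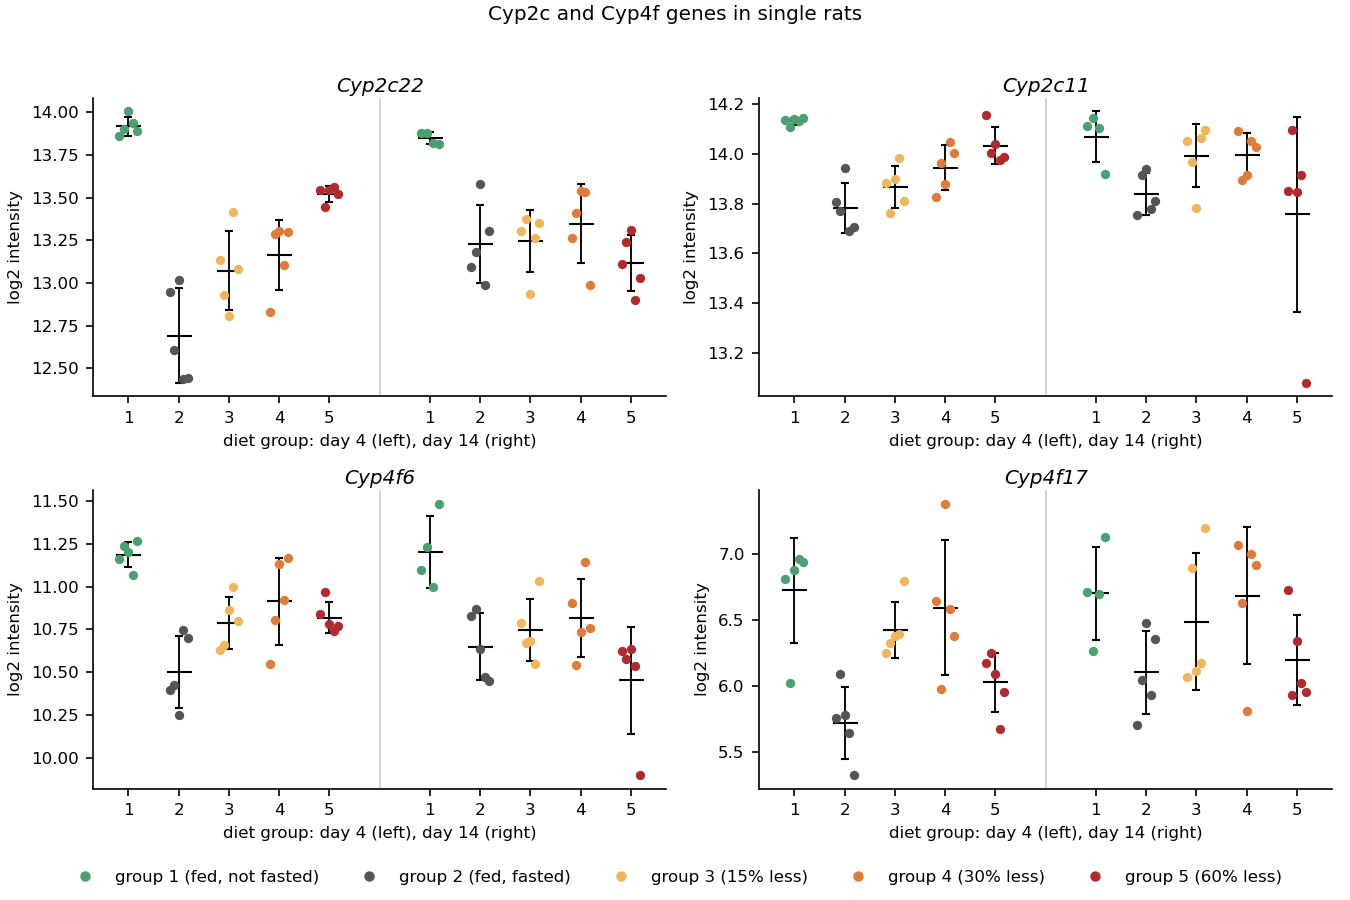
Log2 intensity of Cyp2c22, Cyp2c11, Cyp4f6 and Cyp4f17 in single rats (points) by diet group at day 4 (left of each panel) and day 14 (right), with the group mean (bar) and SD (whiskers). Cyp2c22 stood highest in group 1 at both days and climbed from group 2 to group 5 at day 4 but not at day 14, and 1 rat of group 5 at day 14 was low in Cyp2c11 and Cyp4f6.

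The Cyp2a genes hydroxylate testosterone at different positions. Cyp2a2 (probe set 1369424_at), the male form, was lower in 4 comparisons. At day 4 it had 12.71, 12.68, 12.78, 12.88 and 12.50 in group 1, against 13.00, 13.09, 13.09, 13.06 and 13.05 in group 2, without overlap, and the change was -0.35 (SE 0.07, adjusted p = 0.00569). In group 5 at day 4 it had 12.78, 12.72, 13.02, 12.76 and 12.84, with 1 rat inside the range of group 2, and the change of -0.23 (SE 0.06, adjusted p = 0.0601) was lost without 8 of the 10 rats, each left out in turn (adjusted p up to 0.128, without rat 4 of group 2 at day 4). By day 14 Cyp2a2 had 12.49, 12.67, 12.64, 12.65 and 12.80 in group 3, 12.54, 12.22, 12.38, 12.60 and 12.76 in group 4 and 12.67, 12.70, 12.51, 12.66 and 12.23 in group 5, against 12.87, 12.97, 12.82, 12.97 and 12.73 in group 2. The changes were -0.22 (SE 0.07, adjusted p = 0.119) in group 3, not called, -0.37 (SE 0.10, adjusted p = 0.0355) in group 4 and -0.32 (SE 0.09, adjusted p = 0.0424) in group 5, and the last was -0.24 (adjusted p = 0.0667) without rat 5 of that group. Cyp2a1 was called once, at -0.46 (SE 0.10, adjusted p = 0.0109) in group 1 at day 4. Cyp2a3, a dim probe set, was not called.

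Small changes in the unfasted rats made up much of the rest of family 2. Cyp2b3, a constitutive liver form, was higher in group 1 without overlap at both days, at 0.30 (SE 0.05, adjusted p = 0.00248) and 0.27 (SE 0.07, adjusted p = 0.0357). Cyp2e1, the ethanol- and acetone-metabolising enzyme, was lower without overlap, at -0.30 (SE 0.06, adjusted p = 0.00729) at day 4 and -0.23 (SE 0.06, adjusted p = 0.0471) at day 14, and the day 14 call was lost without rat 1 of group 1 (adjusted p = 0.128). In groups 3, 4 and 5 its changes lay between -0.08 and 0.08 and none was called. Cyp2d3 was lower in group 1, at -0.25 (SE 0.05, adjusted p = 0.00578) at day 4 and -0.20 (SE 0.07, adjusted p = 0.0892) at day 14, and the day 14 call was lost without 8 of the 9 rats, each left out in turn (adjusted p up to 0.216, without rat 4 of group 1 at day 14). At day 4 in group 1, Cyp2g1, known from the olfactory mucosa, had 0.21 (SE 0.06, adjusted p = 0.0284). Its mean over all rats was 5.39, close to the dim limit of 5.31. In the same comparison Cyp2t1 had 0.22 (SE 0.08, adjusted p = 0.0853), which was lost without 7 of the 10 rats, each left out in turn (adjusted p up to 0.19, without rat 5 of group 1 at day 4). Cyp2s1 was called lower in group 4 at day 14, at -0.29 (SE 0.08, adjusted p = 0.042), but its probe set was dim. Cyp2b12, Cyp2b21 and Cyp2d2 were not called.

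Cyp2d4 (probe set 1370329_at) had 10.22, 10.72, 10.57, 10.29 and 10.43 in group 1 at day 4, against 10.15, 9.89, 9.97, 9.83 and 9.78 in group 2, a change of 0.52 (SE 0.10, adjusted p = 0.00573). In group 4 at day 4 it had 10.38, 10.25, 9.97, 10.31 and 10.40, which overlapped group 2, and the call at 0.34 (SE 0.10, adjusted p = 0.0872) was lost without 8 of the 10 rats, each left out in turn (adjusted p up to 0.183, without rat 5 of group 4 at day 4). At day 14 no group was called.

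Cyp2f4 (probe set 1368608_at), which oxidises naphthalene and other small aromatics, moved up in the unfasted rats and, at day 14 only, down in the most restricted rats. It had 10.88, 11.10, 11.07, 10.99 and 11.00 in group 1 at day 4, against 10.81, 10.38, 10.78, 10.57 and 10.82 in group 2, a change of 0.34 (SE 0.09, adjusted p = 0.0231). In groups 3, 4 and 5 at day 4 it averaged 10.90, 10.78 and 10.78, against 10.67 in group 2, none called. At day 14 it had 11.28, 11.23, 11.00 and 11.04 in group 1, and the change of 0.30 (SE 0.10, adjusted p = 0.0791) was lost without 6 of the 9 rats, each left out in turn (adjusted p up to 0.209, without rat 1 of group 1 at day 14). Among the fasted rats of day 14 it had 10.56, 10.61, 10.70, 10.80 and 11.01 in group 3, 10.38, 10.21, 10.27, 10.80 and 10.95 in group 4 and 10.17, 10.29, 10.11, 10.52 and 9.95 in group 5, against 10.66, 10.90, 11.03, 10.69 and 10.89 in group 2. Group 5 was wholly below group 2, at -0.63 (SE 0.11, adjusted p = 0.00274), and this held without each rat in turn. Groups 3 and 4 were not called, at -0.10 (SE 0.10, adjusted p = 0.712) and -0.31 (SE 0.14, adjusted p = 0.227). In group 5 the change differed between the days by -0.74 (SE 0.19, adjusted p = 0.0786), a call lost without 10 of the 20 rats, each left out in turn (adjusted p up to 0.155, without rat 1 of group 5 at day 4).

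The Cyp3a enzymes oxidise steroids and the widest range of drugs. Among the 4 members, Cyp3a18 was called once, at 0.22 (SE 0.08, adjusted p = 0.0985) in group 1 at day 4, which was lost without 7 of the 10 rats, each left out in turn (adjusted p up to 0.197, without rat 2 of group 2 at day 4). Cyp3a2, Cyp3a9 and Cyp3a23-3a1 were called in none of the 8 comparisons. The changes lay between -0.14 and 0.08 for Cyp3a2 and between -0.19 and 0.05 for Cyp3a23-3a1. Cyp3a9, expressed more in female than in male rats, had lower means than group 2 in all 8 comparisons, from -0.86 to -0.22, but its pooled SD within groups was 0.59. The 95% interval of its change in group 3 at day 4 was -1.53 to -0.18, with an adjusted p of 0.348.

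In family 1, Cyp1a1 (probe set 1370269_at), the gene most strongly induced by aryl hydrocarbons, rose with less food at day 14. It had 5.78, 5.64, 5.70, 5.58 and 5.78 in group 3, 5.86, 6.52, 6.48, 5.81 and 6.32 in group 4 and 7.08, 6.02, 6.25, 6.13 and 5.83 in group 5, against 5.46, 5.61, 5.43, 5.32 and 5.46 in group 2. Groups 4 and 5 lay wholly above group 2, with changes of 0.74 (SE 0.14, adjusted p = 0.007) and 0.81 (SE 0.19, adjusted p = 0.013), or 1.67-fold and 1.75-fold, and both calls held without each rat in turn. Group 3 overlapped group 2, at 0.24 (SE 0.07, adjusted p = 0.0757), a call lost without 8 of the 10 rats, each left out in turn (adjusted p up to 0.177, without rat 1 of group 3 at day 14). At day 4 the changes were -0.30 in group 3, -0.03 in group 4 and -0.02 in group 5, none called, and the difference between the days was 0.77 (SE 0.21, adjusted p = 0.178) in group 4 and 0.82 (SE 0.24, adjusted p = 0.117) in group 5, also not called. Its mean over all rats was 5.71, close to the dim limit of 5.31.

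Cyp1a2 and Cyp1b1, of the same family, were called in no comparison. The change of Cyp1a2 in group 5 at day 14 was -0.23 (SE 0.09, adjusted p = 0.131), opposite in sign to that of Cyp1a1. Of 4 other genes known as targets of the aryl hydrocarbon receptor, 1 was called higher in the unfasted rats of day 4 (Tiparp, at 0.48) and none in groups 3, 4 and 5 at that day. None was called higher at day 14 and 1 was called lower, the quinone reductase Nqo1 at -0.92 in group 5. Of all genes, 9.76% were called higher in group 1 at day 4 and 10.9% lower in group 5 at day 14. The receptor gene Ahr was lower in group 3 at day 14, at -0.77, and had -0.01 and -0.02 in groups 4 and 5, not called.

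**Figure D4:**
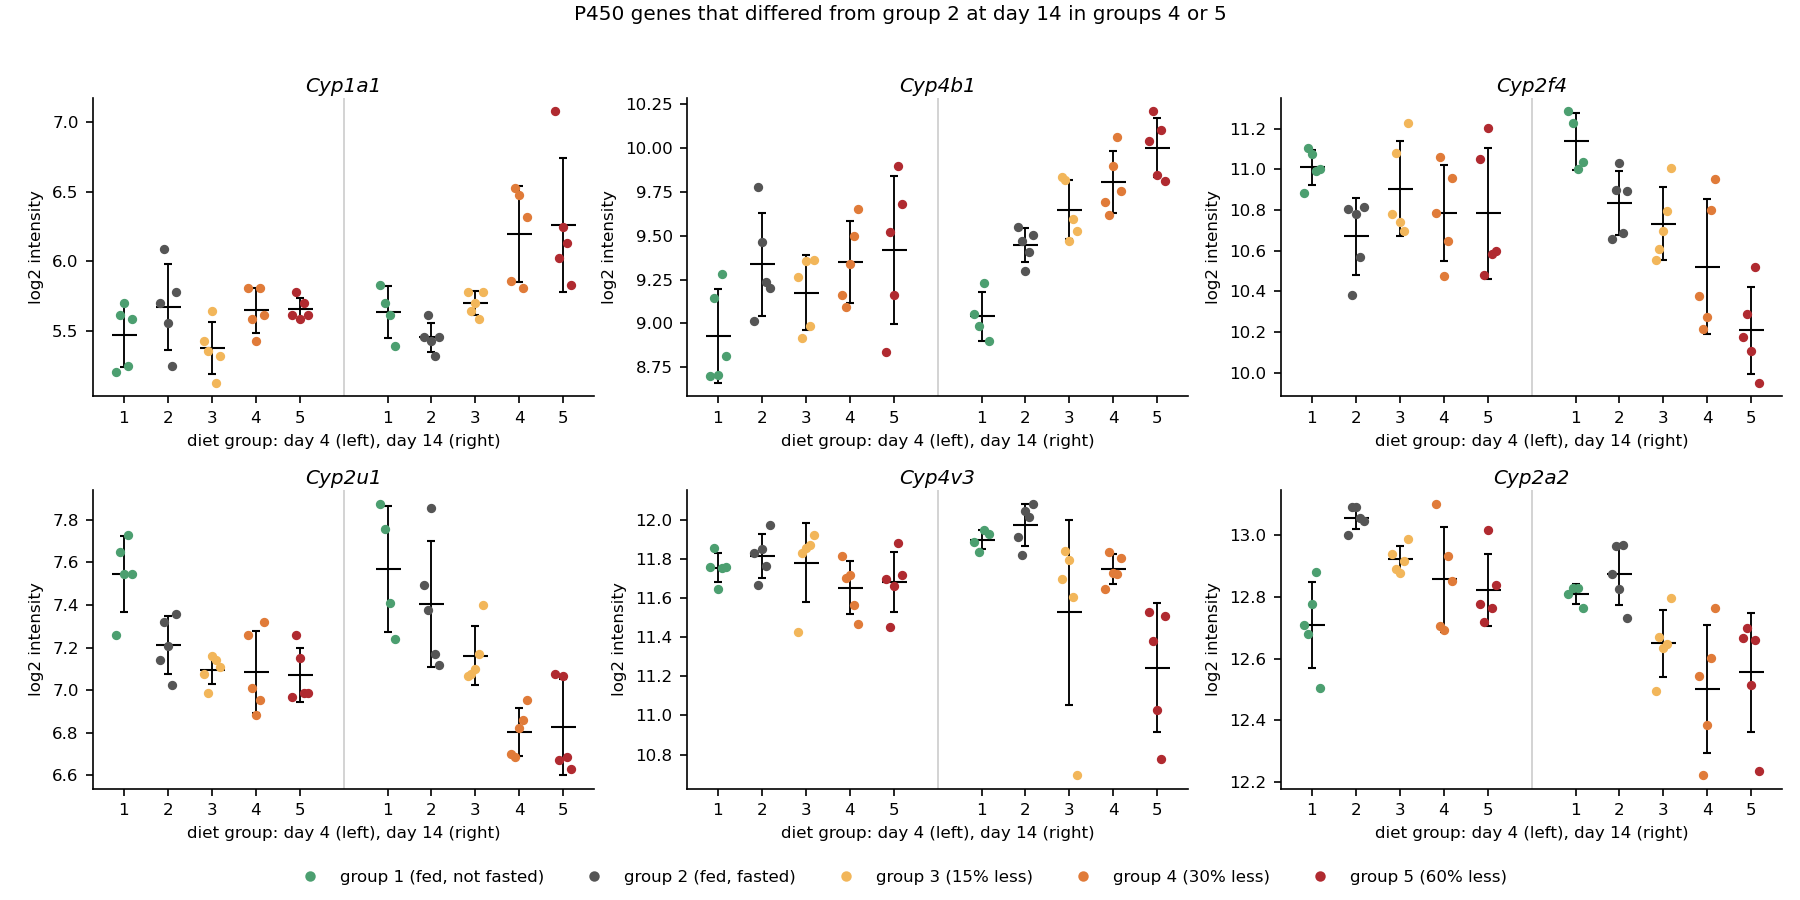
Log2 intensity of Cyp1a1, Cyp4b1, Cyp2f4, Cyp2u1, Cyp4v3 and Cyp2a2 in single rats (points) by diet group at day 4 (left of each panel) and day 14 (right), with the group mean (bar) and SD (whiskers). At day 14, Cyp1a1 and Cyp4b1 were higher in groups 4 and 5 than in group 2 without overlap, and Cyp2u1 was lower in both without overlap.

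A linear trend over the food reduction in groups 2 to 5 was called for 2 members upward and 4 downward at day 4, while 8.82% of all genes were called (4.8% upward, 4.02% downward). The day 14 trend was called for 2 members upward and 10 downward, while 24% of all genes were called (10.8% upward, 13.2% downward). At day 4, Cyp2c22 and Cyp2c11 rose and Cyp4a1, Cyp2j4, Cyp4a3 and Cyp2a2 fell along the reduction, with a fitted change at 60% less food of -0.73 (adjusted p = 0.00275) for Cyp2j4, -0.69 (adjusted p = 0.000366) for Cyp4a3 and -0.22 (adjusted p = 0.0614) for Cyp2a2. At day 14, Cyp1a1 rose, with 0.83 (adjusted p = 0.00239) at 60% less food, and so did Cyp4b1, with 0.54 (adjusted p = 0.000238). The 10 that fell at day 14 were led by Cyp4a1 at -0.74 (adjusted p = 0.0494), Cyp2f4 at -0.64 (adjusted p = 0.000935), Cyp4v3 at -0.62 (adjusted p = 0.0161) and Cyp2u1 at -0.58 (adjusted p = 0.0041). Cyp4a1 and Cyp2a2 were called in the same direction at both days. With group 2 left out, so that only the 3 restricted groups entered, the trend was called for 1 member at day 4 and for 7 at day 14, with 0.155% and 12.9% of all genes called. Of the 18 trend calls, 6 held without group 2, those of Cyp4a1 at day 4 and of Cyp2c7, Cyp2f4, Cyp2t1, Cyp4b1 and Cyp4f1 at day 14. The other 12 were lost, with Cyp4a1 at day 14 at an adjusted p of 0.991 and Cyp1a1 at 0.149. Without rat 5 of group 5, 7 members were called in the trend at day 14, and Cyp4a1 then had an adjusted p of 0.107. The call of Cyp2a2 was lost at day 4 without 6 of the 20 rats, each left out in turn (adjusted p up to 0.133, without rat 2 of group 5 at day 4) and at day 14 without 3 of the 20 rats, each left out in turn (adjusted p up to 0.166, without rat 5 of group 5 at day 14).

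Day 14 was compared with day 4 within each group. No label other than the day marks a batch, so the length of the diet and a batch of that day cannot be told apart. No member was called in group 1 or group 2, where 0% and 0.00703% of all genes were called. At an unadjusted p under 0.05, limma gave 3 members in group 1 (7.14%), against 14.9% of all genes, and 12 in group 2 (28.6%), against 8.65% of all genes. A single fit of all groups called 1 member in group 2, and 0.274% of all genes, and gave 6 members (14.3%) and 9.39% of all genes at an unadjusted p under 0.05. In group 3, 4 members were called higher and 4 lower, with 12.8% of all genes called (8.93% higher, 3.85% lower). In group 4, 3 were called higher and none lower, with 5.47% of all genes called (3.64% higher, 1.84% lower). In group 5, 2 were higher and 5 lower, with 6.71% of all genes called (3.9% higher, 2.81% lower). For group 5, one fit of all groups called 16 members (38.1%) and 14.9% of all genes, and array weights 11 members (26.2%) and 12% of all genes. Cyp4b1 was higher at day 14 in the 3 restricted groups, by 0.47 (adjusted p = 0.0269) in group 3, 0.46 (adjusted p = 0.0648) in group 4 and 0.58 (adjusted p = 0.0959) in group 5. The call in group 3 held without each rat in turn, and those in groups 4 and 5 were lost without 4 of the 10 rats, each left out in turn (adjusted p up to 0.152, without rat 1 of group 4 at day 4) and 7 of the 10 rats, each left out in turn (adjusted p up to 0.22, without rat 3 of group 5 at day 4). Cyp3a9 was higher at day 14 in group 4, by 0.92 (adjusted p = 0.0245), and Cyp2c22 was lower in group 5, at -0.40 (adjusted p = 0.022), and both calls held without each rat in turn. The means of Cyp3a9 were also higher at day 14 in groups 1, 2, 3 and 5, by 0.42, 0.63, 0.73 and 0.82, none called. In group 4 the change of Cyp3a9 from group 2 differed between the days by 0.29, which was not called. Leaving out single rats gave between 4 and 9 members in group 3 (4 without rat 1 or rat 5 of day 14, 5 without rat 2 of day 14) and between 1 and 4 in group 4 (1 without rat 1 or rat 2 of day 4 or rat 3 of day 14). In group 5 it gave between 1 and 8, with 1 without rat 1 or rat 3 of day 4, 2 without rat 1 of day 14, 3 without rat 2 or rat 4 of day 14, and 4 without rat 2 of day 4 or rat 5 of day 14.

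Whether the change from group 2 differed between the days was tested as an interaction. No member was called in group 3 or group 4, where 0.591% (0.373% positive, 0.218% negative) and 0.134% (0.0492% positive, 0.0844% negative) of all genes were called. In group 5, 5 members were called, 2 positive and 3 negative, with 2.04% of all genes called (0.844% positive, 1.2% negative). These were Cyp2c22, Cyp2f4, Cyp2j4 and Cyp4a1, given above, and Cyp4v3 at -0.60 (SE 0.17, adjusted p = 0.0997), a call lost without 16 of the 20 rats, each left out in turn (adjusted p up to 0.175, without rat 4 of group 2 at day 4). The total of 5 fell to between 1 and 3 without any of 11 of the 20 rats, namely rats 1, 2, 4 and 5 of group 2 at day 4, rats 1, 2, 3 and 5 of group 2 at day 14, rats 1 and 3 of group 5 at day 4 and rat 1 of group 5 at day 14. In group 3 the total was 1 without rat 3 of group 3 or rat 4 of group 2 at day 4.

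The genes that serve or control the P450 enzymes were examined as lists. Por, which passes electrons to all microsomal P450 enzymes, was lower in group 1, at -0.56 at day 4 and -1.03 at day 14. It rose under food reduction, by 1.22 (group 4) and 1.48 (group 5) at day 4, and by 1.15, 1.35 and 1.58 in groups 3, 4 and 5 at day 14. Of the 7 redox and heme genes, 3 were called higher and 1 lower in group 1 at each day, and 2 higher and none lower in group 5 at each day. In group 3 none was called at day 4 and 1 higher at day 14, and in group 4, 1 was higher at day 4 and 4 at day 14. Over all genes, the shares called higher in groups 1, 3, 4 and 5 were 9.76%, 0.113%, 3.05% and 3.56% at day 4. At day 14 they were 7.26%, 3.4%, 6.52% and 8.88%. The shares called lower were 11.5%, 0.141%, 2.38% and 3.58% at day 4, and 5.92%, 3.14%, 6.24% and 10.9% at day 14. Cyb5b, the outer mitochondrial cytochrome b5, was higher by 1.03 in group 1 at day 4. Alas1, the first enzyme of heme synthesis, was called once, at 1.13 in group 4 at day 14.

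Of 21 receptors and transcription factors known to act on hepatic P450 genes, 1 was called higher and 9 lower in the unfasted rats of day 4, and 1 higher and 1 lower in those of day 14. In groups 3, 4 and 5 the numbers at day 4 were 2 higher and 1 lower, 4 higher and none lower, and 6 higher and 1 lower, and at day 14 they were 9, 9 and 8 higher and 2 lower in each. Of all genes, 9.76%, 0.113%, 3.05% and 3.56% were called higher in groups 1, 3, 4 and 5 at day 4. The shares called lower there were 11.5%, 0.141%, 2.38% and 3.58%. At day 14 the shares were 7.26%, 3.4%, 6.52% and 8.88% higher and 5.92%, 3.14%, 6.24% and 10.9% lower. The clock-controlled factor Dbp had the largest changes of the 21 in groups 3, 4 and 5 at day 14, at 3.54 in group 3, 3.11 in group 4 and 3.51 in group 5. Cux2, known as a female-biased liver factor in mice, was higher by 1.35 in group 4 and by 2.41 in group 5 at day 14. Stat5b was lower at day 14, at -0.83, -1.01 and -0.92 in groups 3, 4 and 5, all called. The PXR gene Nr1i2 was higher at day 14, by 0.42, 0.56 and 0.76 in groups 3, 4 and 5, and the CAR gene Nr1i3 was called once, at -0.84 in group 1 at day 14. Of 8 other genes known as CAR and PXR targets, 2 were called higher and 1 lower in group 1 at each day, and 2 higher in group 4 at day 4. In the restricted rats 2, 2 and 3 were called higher in groups 3, 4 and 5 at day 14 and 1 lower in group 5 only, with the glucuronosyltransferase Ugt2b1 called higher at 1.18 in group 5. The shares of all genes to set beside these counts are those given for the 21 factors.

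P450 genes outside families 1 to 4 were taken as a neighbouring set of 11 genes. In group 1, 4 were called higher and 3 lower at each day. Cyp51, the lanosterol demethylase of cholesterol synthesis, was higher by 2.37 at day 4 and 1.89 at day 14, and Cyp17a1, a steroid hydroxylase, was lower, at -1.72 and -1.38. Under food reduction, 0, 2 and 1 were called higher and 0, 0 and 1 lower at day 4 in groups 3, 4 and 5, and 2, 6 and 4 higher and 0, 1 and 1 lower at day 14. The shares of all genes called in these comparisons were those given above for the redox and heme genes. Cyp7a1, the rate-limiting enzyme of bile acid synthesis, was higher by 1.73 in group 4 and 1.56 in group 5 at day 14, while Cyp8b1, which directs bile acid synthesis to cholic acid, was lower, at -1.37 and -0.96, all called. Of 8 periportal hepatocyte genes, which include the member Cyp2f4, 5 were called higher and 1 lower in group 5 at day 14, the 1 lower being Cyp2f4 itself. Of 8 pericentral genes, which include Cyp2e1 and Cyp1a2, 1 was called higher and 2 lower there. Of all genes, 8.88% were called higher and 10.9% lower in that comparison.

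The 5 male-predominant P450 genes (Cyp2a2, Cyp2c11, Cyp2c13, Cyp3a2 and Cyp3a18) and the 4 female-predominant ones (Cyp2a1, Cyp2c7, Cyp2c12 and Cyp3a9) were read as lists of their own, with no test. In group 1 at day 4, 3 of the 5 male-predominant genes were called higher and 1 lower, with a median change of 0.22, while none of the 4 female-predominant genes was called higher and 1 lower, with a median of -0.18. Of all genes 9.76% were called higher and 11.5% lower there. At day 14 in group 5 none of the 5 was called higher and 1 lower, and their median change was -0.31, against 0.00 for the 4 female-predominant genes, of which none was called. Of all genes 8.88% were called higher and 10.9% lower in that comparison. The mean of the 5 genes ran from 12.54, in rat 5, to 13.60 in group 5, against 13.46 to 13.61 in group 2. A median change without rat 5 was not computed. In group 1 at day 14 the medians were -0.06 and -0.08. In the remaining comparisons they lay between -0.08 and 0.06 for the male-predominant and between -0.32 and -0.04 for the female-predominant genes. Of the female-predominant genes 1, Cyp2a1, was called in any comparison with group 2.

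Rats of the same group differed from each other more in some P450 genes than in others. The pooled SD within groups had a median of 0.19 over the 42 members and of 0.14 over all genes. It was lowest for Cyp2d2, at 0.06, and Cyp2e1, at 0.07, and highest for Cyp4a8 at 0.89, Cyp2c12 at 0.84 and Cyp3a9 at 0.59. The 8 members with the lowest SD had mean log2 intensities between 12.95 and 14.37, which lay at percentile 98.6 or above among the means of all genes. Whether the signal saturates there and narrows their spread was not tested. At day 14 Cyp2c12 had 12.68, 10.43, 13.03, 11.68 and 12.71 in group 5, against 12.09, 11.20, 11.89, 10.37 and 12.96 in group 2, while the means of the 10 groups lay between 11.51 and 12.45. Cyp2c12 is shown here, and Cyp2c13, Cyp3a9 and Cyp3a18 in the plot of male- and female-predominant genes, for their spread between rats, a choice made after the values were seen.

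Rat 5 of group 5 at day 14 stood apart in the male-predominant genes and also in members outside that list. It had the lowest value of its group in 21 of the 42 members and the highest in 3. Rats 1 to 4 had the lowest value in 5, 7, 2 and 7 members. The same count was not made over all genes. Outside the list, rat 5 had 12.47 in Cyp3a23-3a1, with the others at 13.20 to 13.38. In Cyp4f6 it had 9.90, with the others at 10.54 to 10.63. Cyp3a18 had 13.15, 13.23, 13.25, 13.02 and 11.53 in group 5, against 13.29, 13.46, 13.27, 13.17 and 13.23 in group 2, and Cyp2c13 had 13.11, 13.72, 13.44, 13.44 and 12.58, against 13.50, 13.64, 13.59, 13.62 and 13.48, with rat 5 as the lowest in both. After the group means were taken out, the deviations of the 10 pairs of male-predominant genes correlated with a median r of 0.65 over 49 rats, and with 0.33 over 48 rats without that rat. Cyp3a18 and Cyp3a23-3a1, the latter not in that list, correlated at 0.71, and at 0.41 without that rat. Over all 861 pairs of members the median r was 0.04. These correlations describe the arrays, whose genes share a rat and an array, and were not tested. The number of members called in group 5 at day 14 was 7 with and 7 without that rat.

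**Figure D5:**
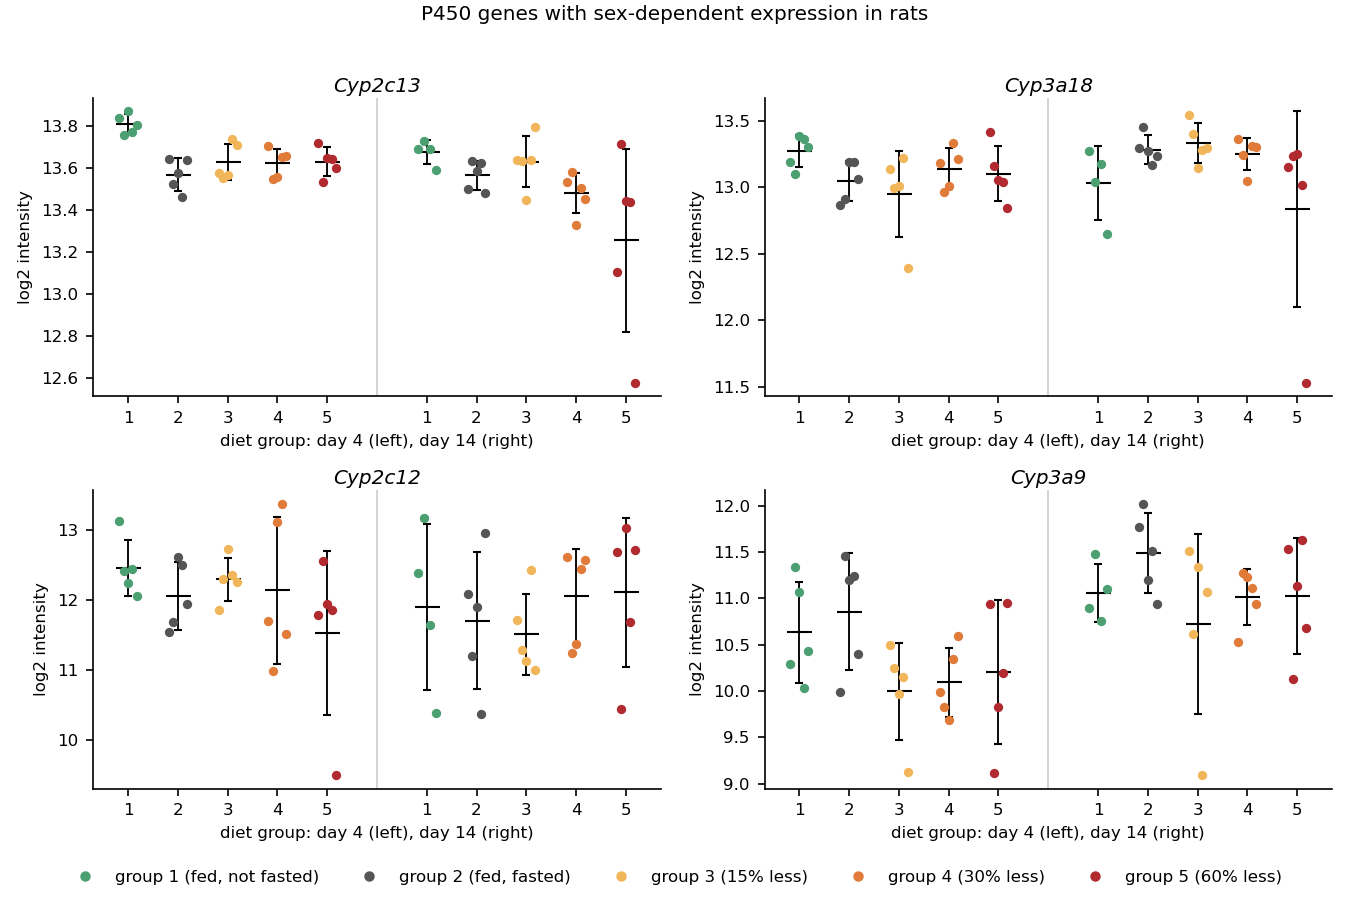
Log2 intensity of the male-predominant Cyp2c13 and Cyp3a18 and the female-predominant Cyp2c12 and Cyp3a9 in single rats (points) by diet group at day 4 (left of each panel) and day 14 (right), with the group mean (bar) and SD (whiskers). The lowest point of Cyp2c13 and Cyp3a18 is the same rat of group 5 at day 14, while single rats of Cyp2c12 ran from 9.50 to 13.37.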

How the data were processed

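Liver RNA of 49 rats was measured on 1 array per rat, and groups and days were taken from the sample labels. The authors made the deposited intensities with Affymetrix Expression Console and RMA (affy 1.38.1 in R 3.0.1), which corrects background, normalizes between arrays and summarises each probe set; the deposited values were whole numbers from 8 to 33095, and log2 was taken here. Array medians lay between log2 6.34 and 6.43 and no arrays were identical. Microarrays give no read depth, so precision rests on the number of rats.

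Of 31042 probe sets, 20826 had 1 gene symbol, 436 several and 9780 none. Those with 1 symbol gave 14217 genes, each as its probe set of highest mean. Each comparison was fitted separately with limma 3.58.1 (lmFit and eBayes) in R 4.3.3, and p-values were adjusted by Benjamini-Hochberg over all genes. The 18 results were 8 comparisons with group 2, 5 of the days, 3 interactions and 2 linear trends. The Bayesian mixture model of the study's methods was not used. The fits were tested on simulated data.

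The members and gene lists were chosen with earlier results of these data known. Values per rat are given for the first 3 higher and first 3 lower called members of each comparison with group 2. Called members were ranked by log2 change, and 14 genes were named in this way. Redox and heme genes, receptors and factors, targets of AhR, CAR and PXR, and PPARα, other P450 families, sex-predominant P450 genes, zonal hepatocyte genes and cell type markers were the lists. Alternatives were a threshold of 0.05, 1 fit of all groups, leaving out the dimmest 20% of genes, the mean of a gene's probe sets, quantile normalization, array weights, leaving out each rat and a trend without group 2. Promoter sequences are RefSeq's for GRCr8. Python 3.11.15, numpy 2.4.6, pandas 2.3.3 and matplotlib 3.10.9 were used. Each rat is a separate animal.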

Additional observations from a re-analysis of the deposited data

Results flagged for a closer look

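Rats far from the others of their group were found in 10 of the 140 sets of rats formed by 14 members and 10 groups, and chance alone gives about 1 in 20. Rat 5 of group 5 at day 14 was low in Cyp2c11, at 13.08 with the other 4 at 13.85 to 14.10, and in Cyp4f6, at 9.90 with the others at 10.54 to 10.63. In group 3 at day 14, rat 3 was low in Cyp2c22, at 12.93 with the others at 13.26 to 13.37, and high in Cyp4a1, at 12.46 with the others at 11.59 to 11.78. Rat 4 of that group was low in Cyp4a3, at 12.84 with the others at 13.21 to 13.32, and rat 5 was low in Cyp4v3, at 10.70 with the others at 11.60 to 11.84. In group 3 at day 4, rat 4 was high in Cyp2d4, at 10.48 with the others at 10.03 to 10.13, rat 5 was high in Cyp4f17, at 6.79 with the others at 6.25 to 6.39, and rat 1 was low in Cyp4v3, at 11.42 with the others at 11.83 to 11.92. In group 1 at day 4, rat 2 was low in Cyp4f17, at 6.02 with the others at 6.81 to 6.97.

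The change from group 2 differed between day 14 and day 4 in group 5 for 5 members, tested as an interaction in limma with adjustment over all genes. The difference, day 14 minus day 4, was -0.94 (SE 0.17, adjusted p = 0.018) for Cyp2c22, -0.74 (SE 0.19, adjusted p = 0.0786) for Cyp2f4, 0.67 (SE 0.17, adjusted p = 0.067) for Cyp2j4, 0.61 (SE 0.17, adjusted p = 0.0901) for Cyp4a1 and -0.60 (SE 0.17, adjusted p = 0.0997) for Cyp4v3.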

How the results depend on the processing

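A stricter adjusted p of 0.05 gave fewer members called in group 1 at day 14 (9), group 3 at day 4 (0), group 3 at day 14 (2), group 4 at day 4 (2), the day 14 trend (7), the days in groups 3, 4 and 5 (5, 1 and 1) and the interaction in group 5 (1). The stricter threshold can only lower the calls over all genes too, and their shares are not given here. One fit of all groups called 0 members in group 3 at day 4, 12 in group 5 at day 14, 1 for the days in group 2 and 16 for the days in group 5, where it called 1.10%, 27.5%, 0.274% and 14.9% of all genes. Array weights called 11 for the days in group 5, and 12% of all genes. The mean of a gene's probe sets and a further quantile normalization each called 0 members in group 3 at day 4, and their shares of all genes are not given here. The trend without group 2 was called for 1 member at day 4 and 7 at day 14. With the mean of its probe sets, the day 14 trend of Cyp2j3 turned to 7.44e-05 log2 per percent (adjusted p = 0.985), against -0.00336 with the brighter one. The cause was not tested in these cases.

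Leaving out 1 rat at a time, the members called numbered 18 to 22 in group 1, 0 to 1 in group 3, 2 to 8 in group 4 and 5 to 7 in group 5 at day 4, and 8 to 13, 2 to 5, 6 to 8 and 7 to 10 at day 14. They numbered 0 in groups 1 and 2, 4 to 9 in group 3, 1 to 4 in group 4 and 1 to 8 in group 5 for the days, 0 to 1, 0 and 1 to 5 for the interactions of groups 3, 4 and 5, and 5 to 7 and 7 to 12 for the trends of day 4 and day 14. The matching shares of all genes were not computed. Of 108 calls of single members, 64 held without each rat in turn, and of the 67 in the comparisons with group 2, 47 did. Of the calls in the settings that keep all rats, 69 of 108 held at an adjusted p of 0.05, 72 of 90 with one fit of all groups, 6 of 18 for the trend without group 2, 107 of 107 without the dimmest 20% of genes, 103 of 108 with the mean of probe sets, 101 of 108 with quantile normalization and 103 of 108 with array weights. No paired analysis was possible because the labels give rats no number that is shared between groups. Genes near the dim limit, such as Cyp1a1, Cyp2g1 and Cyp4f17, have little signal above background, which limits their fold changes.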

Other observations

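Probe sets that carry more than 1 P450 symbol belong to no member, and their group means are given in log2 intensity without a test. The probe set of Cyp2b2 and Cyp2b1, the phenobarbital-inducible forms, had 10.16 in group 1 at day 4, against 10.45 in group 2, with 9.47, 9.33 and 9.54 in groups 3, 4 and 5. Single rats at day 4 ran from 9.65 to 11.80 in group 2. They ran from 8.74 to 10.31, 7.69 to 10.16 and 9.36 to 9.91 in groups 3, 4 and 5, all overlapping group 2. At day 14 this probe set had 9.92 in group 1, against 10.76 in group 2, with 10.41, 10.17 and 10.31 in groups 3, 4 and 5, again with overlap. The probe set of Cyp4a3 and Cyp4a2 had 13.16 in group 1 at day 4, against 13.58 in group 2, with 13.53, 13.32 and 13.10 in groups 3, 4 and 5. At day 14 it had 12.95 in group 1, against 13.30 in group 2, with 13.01, 12.71 and 12.92 in groups 3, 4 and 5. The probe set of Cyp2a2 and Cyp2a1 had 13.05 in group 1 at day 4, against 13.35 in group 2, and 13.02 in group 5 at day 14, against 13.21 in group 2. The means of the probe set of Cyp2d5 and Cyp2d1 lay between 13.10 and 13.40 in the 10 groups.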
